A study of Mus musculus with 12 samples.

Results

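The response of wild-type mouse glia to interleukin-1β (IL-1β) was read from 6 arrays, 3 of cells given IL-1β and 3 of cells given vehicle, out of the 12 arrays of the series. The arrays were chosen by their titles and paired by replicate number, since the design text states paired treatments in independent biological replicates. Both groups were primary mixed glia from wild-type animals, kept for 10 to 12 days after isolation and treated for 4 hours, with rrIL-1β at 10 ng/ml or with vehicle. The other 6 arrays came from glia that lack IL-1R1 (IL-1R1-/-), treated the same way. Radio-labelled cDNA made from total RNA was hybridised, and each probe has 1 intensity per array. Of 8734 probes, 6215 (71.2%) had a value on all 6 wild-type arrays, and 5084 of these carried 1 gene symbol, for 4312 genes.

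IL-1β binds the receptor IL-1R1, which recruits the adaptor MyD88 and the IRAK kinases and frees the transcription factor NF-κB from its inhibitor IκBα. NF-κB then drives genes for chemokines, acute phase proteins and its own inhibitors. In brain tissue astrocytes and microglia both respond to IL-1β, and primary mixed glial cultures hold both. Reactive astrocytes are usually described by a set of genes that includes Lcn2, Gbp2, Steap4, Ptx3, Emp1, Tm4sf1, Amigo2 and Sphk1.

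IL-1β raised a small group of secreted, metal-handling, NF-κB feedback and guanylate-binding protein genes and lowered Id4, Slc38a1 and Scpep1. Ptx3, Lcn2, Gbp2, Ccl12 and Steap4 showed fitted increases of 3.90-fold to 10.7-fold, once a trend along the order of the probes was removed. The 21 probes past an adjusted p of 0.05 both before and after that step, 18 higher and 3 lower, belonged to 17 named genes and 2 probes without a gene symbol. With quantile normalization alone 222 of 6215 probes passed (3.57%), 174 higher and 48 lower with IL-1β. With the trend removed 25 passed (0.402%), 19 higher and 6 lower. Median centring in place of quantile normalization gave 15 here, 13 higher and 2 lower. Some of the 17 genes depended on the processing. With the trend removed, Slc38a1 passed in 7 of 15 alternative settings, and Scpep1, Gbp7, Gbp9 and Ahcyl2 in 8 each. Smim3 passed in 7 of 14. Id4 and Lcn2 passed in 13 of 15 and Ptx3 in 14. The groups of 3 did not overlap at 971 probes (15.6%).

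The trend was as large as many of the changes. Neighbouring probes changed alike (the correlation of the mean log2 change between adjacent probes was 0.645 over the probes, a description without a test), and it was 0.611 at a distance of 24 probes and 0.613 at 384. Each pair had a trend, with correlations between adjacent probes of 0.425, 0.611 and 0.575, and of 0.432, 0.597 and 0.603 at a distance of 384. At a distance of 192 probes the pairs differed, at 0.098, -0.060 and 0.389. A layout of 23 plates of 16 by 24 wells with a step after plate 11 was inferred from the values, since no spot coordinates were used. The median log2 change was -0.20 over the 2944 probes before the step and 0.15 over the 3271 probes after it. Of the 174 higher calls 171 lay after the step, 128 of them in the last 4 plate rows, and 46 of the 48 lower calls lay before it. After removal the correlation between adjacent probes was 0.052, although the 201 probes of the last plate kept a median of 0.10. The main changes below are therefore given on both scales, with quantile normalization and with the trend removed, and the rest on 1 of them. Position and treatment cannot be told apart for the probes that passed on the first scale alone.

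**Figure D1:**
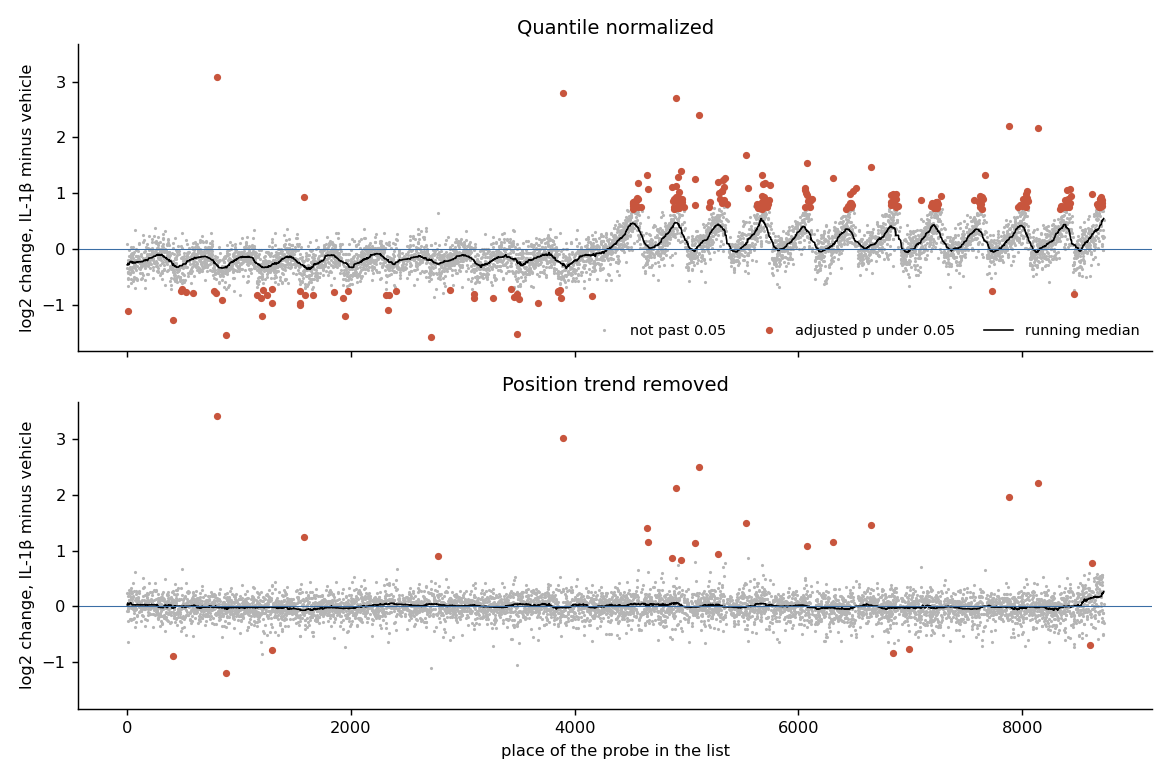
Log2 change, IL-1β minus vehicle (mean of 3 pairs), of each of the 6215 probes by its place in the list, before (top) and after (bottom) removal of the position trend. Orange points passed an adjusted p of 0.05 (222 above, 25 below) and the black line is a running median. In the upper panel the orange points follow the crests after the step, and in the lower panel they stand apart from a nearly flat median that rises at the end of the list.

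Array quality touched the wild-type data at 1 point. The values of wild-type vehicle replicate 1 recurred, at a constant ratio of 1.12, in 5959 of 5982 shared probes of an array labelled IL-1R1-deficient vehicle replicate 3 (within 1e-04 on the log2 scale), and which label holds is not known. Each of the 19 probes described below is therefore also given without replicate 1, with the trend removed, on the 2 remaining pairs. A fit on 2 pairs borrows spread from the other probes, and its adjusted p can be smaller than that on 3 pairs. That adjusted p is thus no measure of how firm a call is. Median intensities ran from 4649 to 24600 per array before normalization, with the lowest intensity at 0.225 to 0.368 of the median. Background is thus not known to have been subtracted, and folds are those of the intensities. The log2 changes of the 3 pairs correlated across probes at 0.443, 0.307 and 0.280, and at 0.185, 0.230 and 0.180 with the trend removed.

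Among the genes of the NF-κB pathway the inhibitor itself changed. Nfkbia encodes IκBα, which holds NF-κB in the cytoplasm and is resynthesised as feedback when NF-κB is active. On its probe 5529 the log2 intensity in replicates 1, 2 and 3 was 14.32, 13.89 and 13.88 with vehicle and 16.38, 15.25 and 15.51 with IL-1β. Every IL-1β value lay above every vehicle value. The log2 change was 1.69 ± 0.21 (SE, n = 3 pairs), and 1.49 ± 0.16 with the trend removed (limma, adjusted p = 2.65e-04). A second probe of Nfkbia, 6646, gave 1.47 ± 0.22 and 1.46 ± 0.15 (adjusted p = 1.45e-04). Without replicate 1 the Nfkbia probes gave 1.09 and 1.15, and both still passed. Tnfaip2, a TNF-induced gene, read 13.61, 14.07 and 13.80 with vehicle and 15.22, 14.99 and 15.06 with IL-1β. The groups did not overlap, and the change was 1.26 ± 0.21 and, with the trend removed, 1.16 ± 0.14 (adjusted p = 8.05e-04). Without replicate 1 it was 0.95 and still passed (adjusted p = 0.00251).

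Ptx3 had the largest fold of the 19 probes on both scales. It encodes the long pentraxin, a secreted pattern recognition protein of the acute phase. Its log2 intensity was 13.52, 14.48 and 13.92 with vehicle and 18.12, 16.87 and 16.14 with IL-1β. All IL-1β arrays were higher, and replicate 1 moved most, by 4.61 against 2.39 and 2.22 in the other pairs. The change was 3.07 ± 0.30, or 8.42-fold, and 3.42 ± 0.29 with the trend removed (adjusted p = 3e-05), which fell to 2.54 without replicate 1 (adjusted p = 1.46e-10).

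Lcn2 encodes lipocalin 2, a secreted protein that binds iron-loaded siderophores and marks reactive astrocytes. It read 14.82, 12.89 and 13.60 with vehicle and 17.05, 16.29 and 16.38 with IL-1β. The vehicle arrays spread more (SD 0.98) than the IL-1β arrays (SD 0.42), with no overlap between the groups. The change was 2.80 ± 0.22, and 3.01 ± 0.20 with the trend removed (adjusted p = 4.25e-06), and it was 3.09 without replicate 1.

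Ccl12 is a chemokine of the monocyte chemoattractant family. Its probe 5112 read 13.57, 13.40 and 13.74 with vehicle and 16.79, 15.48 and 15.64 with IL-1β. Its probe 8138 read 13.93, 13.43 and 13.35 with vehicle and 16.37, 14.69 and 16.14 with IL-1β. On both probes the groups stood apart, while the pairs ranked differently: replicate 2 moved least on probe 8138, by 1.26, and replicate 3 least on probe 5112, by 1.90. The changes on probes 5112 and 8138 were 2.40 ± 0.23 and 2.16 ± 0.24. With the trend removed they were 2.49 ± 0.21 (adjusted p = 3e-05) and 2.22 ± 0.19 (adjusted p = 3.2e-05). Without replicate 1 the change on probe 5112 was 1.87, and on probe 8138 it was 1.74.

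Steap4 encodes a membrane metalloreductase that reduces iron and copper. It read 13.36, 13.18 and 13.87 with vehicle and 15.88, 14.92 and 16.23 with IL-1β. Vehicle and IL-1β arrays did not overlap, and the pair that moved least changed by 1.74 on the log2 scale. The change was 2.21 ± 0.21, and 1.97 ± 0.15 with the trend removed (adjusted p = 1.7e-05). Without replicate 1 it was 1.59 (adjusted p = 7.76e-07).

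The guanylate-binding proteins, GTPases that interferons induce and that act against intracellular microbes, were the largest gene family among the 17 genes, with Gbp2, Gbp3, Gbp7 and Gbp9. Gbp2 read 13.44, 13.25 and 12.86 with vehicle and 16.19, 16.23 and 15.22 with IL-1β. The 3 pairs moved by 2.75, 2.98 and 2.36, a narrower range than that of Ptx3. The change was 2.70 ± 0.21, or 6.49-fold, and 2.12 ± 0.14 with the trend removed, or 4.34-fold (adjusted p = 4.25e-06). Gbp3 read 14.56, 13.79 and 13.39 with vehicle and 15.50, 15.86 and 15.01 with IL-1β. It did not overlap between the groups, and its change was 1.54 ± 0.22 and, with the trend removed, 1.09 ± 0.16 (adjusted p = 0.00447). Without replicate 1 Gbp2 gave 1.85 (adjusted p = 9.37e-08) and Gbp3 1.14 (adjusted p = 2.27e-04).

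Gbp7 and Gbp9 changed less. The Gbp7 probe 4948 changed by 1.39 ± 0.21, and by 0.84 ± 0.14 with the trend removed (adjusted p = 0.0183). Its other probe, 4657, gave 0.58 ± 0.20 and 0.62 ± 0.15 and passed in neither fit (adjusted p = 0.109 and 0.121). Gbp9 changed by 1.10 ± 0.22, and by 0.87 ± 0.15 with the trend removed (adjusted p = 0.0246). Without replicate 1 Gbp7 gave 0.69 (adjusted p = 0.0588) and Gbp9 0.61 (adjusted p = 0.101) with the trend removed, so that both calls were lost. Without replicate 2 the adjusted p of Gbp7 was 0.0519. The 4 probes that passed lay after the step, where the median change was above 0, and each gave a smaller change once the trend was removed. Those of Gbp2, Gbp3 and Gbp7 lay in the last 4 plate rows after the step. There the median log2 change was 0.52 with quantile normalization, and 128 probes were called higher. With the trend removed these probes were the 3 higher calls left in those rows. The genes are close in sequence, and whether a probe also captures RNA of another family member was not tested.

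Of the other genes that rose, Lrig1, a membrane protein that dampens growth factor receptors, was the only 1 of the 19 named probes whose groups overlapped. It read 14.05, 13.94 and 15.29 with vehicle and 14.79, 15.05 and 16.26 with IL-1β, so that replicate 3 was the highest under both treatments and every pair still rose. Its change was 0.94 ± 0.20, and 1.25 ± 0.16 with the trend removed (adjusted p = 9.86e-04), and 1.26 without replicate 1. Trmt1l, a relative of a tRNA methyltransferase, changed by 1.07 ± 0.21 and 1.15 ± 0.16 on probe 4652, but its probe 6994 gave 0.06 ± 0.21 and -0.05 ± 0.14. The 2 probes thus disagree, and the first gave 0.96 without replicate 1 (adjusted p = 0.00612). Ahcyl2, a relative of S-adenosylhomocysteine hydrolase, changed by 2.09, 0.31 and 1.35 in the 3 pairs and passed narrowly with the trend removed (1.14 ± 0.22, adjusted p = 0.0488). Smim3, a small membrane protein, changed by 0.98 ± 0.20 and 0.77 ± 0.14 (adjusted p = 0.0321), on the last plate, whose median stayed above 0. With the trend removed, Ahcyl2 lost its call without replicate 1 (0.62, adjusted p = 0.101), and Smim3 without replicate 1 (0.66, adjusted p = 0.0685) and without replicate 2 (adjusted p = 0.0617).

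Id4 fell most among the 3 genes that were lower in both fits. It encodes a helix-loop-helix protein that blocks DNA binding by bHLH factors and marks astrocytes and their precursors. Its log2 intensity was 15.32, 14.73 and 14.45 with vehicle and 13.76, 13.50 and 12.64 with IL-1β. No IL-1β array reached the lowest vehicle array. The change was -1.54 ± 0.21, and -1.18 ± 0.15 with the trend removed (adjusted p = 9.6e-04). Without replicate 1 it was -0.94 (adjusted p = 0.00251). RNA of whole cultures was measured, so fewer cells of a type and less RNA per cell cannot be told apart.

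Slc38a1, a sodium-coupled transporter of glutamine and other neutral amino acids, read 15.46, 15.13 and 15.48 with vehicle and 14.61, 14.25 and 14.32 with IL-1β. The pairs moved by -0.85, -0.89 and -1.16, close to each other and with no overlap between the groups. The change was -0.96 ± 0.20, and -0.78 ± 0.14 with the trend removed (adjusted p = 0.0212). Scpep1, a serine carboxypeptidase, read 15.57, 15.70 and 15.55 with vehicle and 14.64, 14.61 and 13.76 with IL-1β. The groups stood apart, and the change was -1.27 ± 0.22 and, with the trend removed, -0.88 ± 0.16 (adjusted p = 0.0328). Without replicate 1 Slc38a1 gave -0.73 (adjusted p = 0.0354) and Scpep1 -0.84 (adjusted p = 0.0209). Without replicate 3 the calls of Slc38a1 (adjusted p = 0.0688) and Scpep1 (adjusted p = 0.101) were lost with the trend removed. Of the 19 probes, 13 passed with the trend removed whichever replicate was left out. The 19 were chosen for passing on these same arrays, and each such fit borrows spread from the other probes. The count is thus no measure of how firm these calls are.

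**Figure D2:**
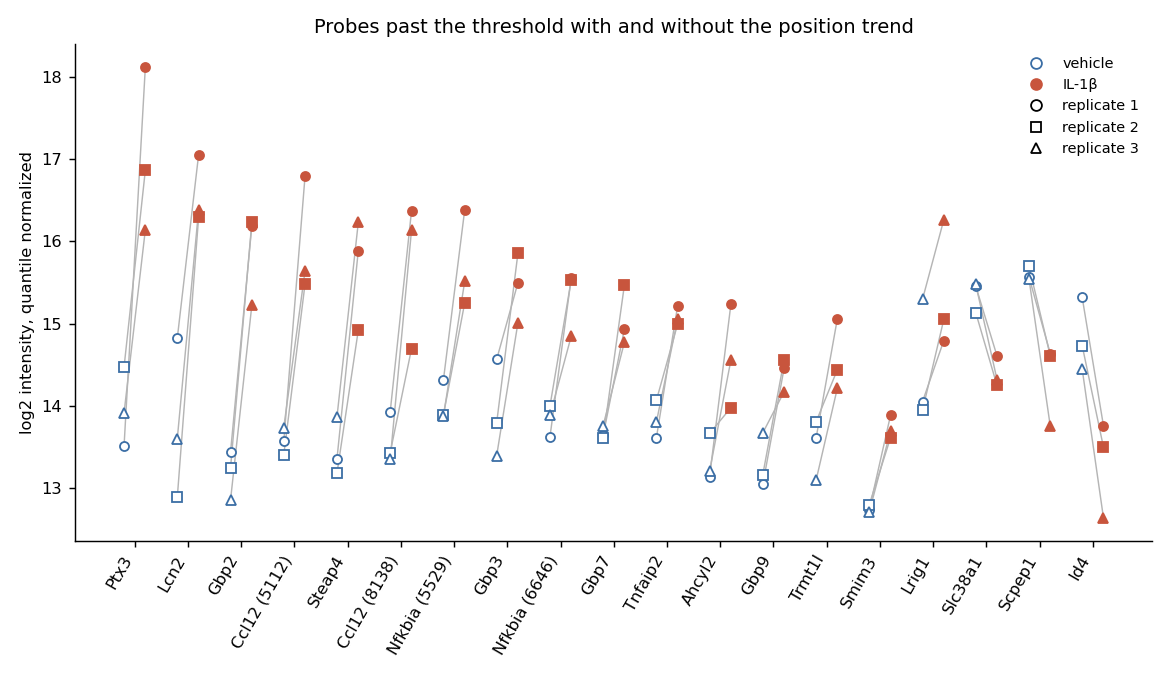
Quantile-normalized log2 intensity of the 19 probes, from 17 named genes, past an adjusted p of 0.05 with and without the position trend; open blue symbols are vehicle, filled orange symbols IL-1β, the symbol gives the replicate and a grey line joins the arrays of a pair. Probes are ordered by their log2 change, from 3.07 for Ptx3 to -1.54 for Id4, and only Lrig1 has overlapping groups.

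Besides these, probes 4650 and 5279, which carry no gene symbol in the annotation used here, rose in both fits, by 1.41 ± 0.15 and 0.95 ± 0.15 with the trend removed. A further 4 probes passed only once the trend was removed. Cyb5r3, a reductase of cytochrome b5, was lower at -0.69 ± 0.13 (adjusted p = 0.0488) and lay on the last plate. EG546101 was lower at -0.77 ± 0.15 (adjusted p = 0.0488). Probe 2780 was higher at 0.91 ± 0.16, and probe 6846 lower at -0.84 ± 0.16, neither with a gene symbol. With quantile normalization these 4 gave -0.49, -0.66, 0.64 and -0.30 in the same order (limma, adjusted p = 0.2, 0.0621, 0.0729 and 0.464).

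Promoter sequences were printed for the 5 genes that rose and had an NF-κB motif in this window, since NF-κB is the factor that IL-1R1 is known to activate. RefSeq (GRCm38.p6) gave a window of 300 bases, 250 before the start of transcription and 50 after, for 12 of the 14 genes that rose and for 2 of the 3 that fell. No entry matched Gbp9, Smim3 and Slc38a1. The NF-κB motif, searched on both strands as the usual 10-letter κB consensus, was found in 5 of the 12 genes, and in 9.55% of all 27025 genes with a promoter entry. Each is read 5′ to 3′ along the strand of its gene, with the match in capitals.
Nfkbia, chr12:55492598-55492897, minus strand: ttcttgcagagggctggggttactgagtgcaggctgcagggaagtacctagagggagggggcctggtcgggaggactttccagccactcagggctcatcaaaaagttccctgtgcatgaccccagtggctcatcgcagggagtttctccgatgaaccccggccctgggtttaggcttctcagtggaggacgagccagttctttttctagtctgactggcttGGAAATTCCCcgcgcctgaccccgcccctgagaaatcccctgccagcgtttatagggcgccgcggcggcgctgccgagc
Tnfaip2, chr12:111442411-111442710, plus strand: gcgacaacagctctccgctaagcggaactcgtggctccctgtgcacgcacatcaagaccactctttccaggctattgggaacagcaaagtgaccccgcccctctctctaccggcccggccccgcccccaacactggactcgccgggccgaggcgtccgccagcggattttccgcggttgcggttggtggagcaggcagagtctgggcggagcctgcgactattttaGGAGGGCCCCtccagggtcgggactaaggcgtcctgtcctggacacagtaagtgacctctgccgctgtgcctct
Ptx3, chr3:66219637-66219936, plus strand: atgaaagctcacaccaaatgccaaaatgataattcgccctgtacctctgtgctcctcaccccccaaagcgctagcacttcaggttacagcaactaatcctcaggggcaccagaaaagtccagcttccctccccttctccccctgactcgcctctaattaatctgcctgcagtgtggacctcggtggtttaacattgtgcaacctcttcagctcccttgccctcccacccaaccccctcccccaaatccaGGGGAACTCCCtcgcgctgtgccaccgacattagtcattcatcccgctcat
Gbp2, chr3:142620413-142620712, plus strand: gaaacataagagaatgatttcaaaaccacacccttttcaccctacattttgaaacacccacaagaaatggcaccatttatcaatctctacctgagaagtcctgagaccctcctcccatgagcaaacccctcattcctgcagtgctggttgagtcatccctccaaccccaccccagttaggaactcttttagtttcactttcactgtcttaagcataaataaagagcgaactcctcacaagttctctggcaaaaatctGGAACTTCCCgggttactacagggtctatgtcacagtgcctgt
Steap4, chr5:7960222-7960521, plus strand: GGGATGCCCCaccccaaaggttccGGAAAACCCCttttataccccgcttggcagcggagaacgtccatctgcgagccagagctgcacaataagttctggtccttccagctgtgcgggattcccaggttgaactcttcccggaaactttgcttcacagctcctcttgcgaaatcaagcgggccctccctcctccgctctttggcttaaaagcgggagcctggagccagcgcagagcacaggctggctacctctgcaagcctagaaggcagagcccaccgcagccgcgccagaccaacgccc
The first base of the match was at position -29 in Nfkbia, -24 in Tnfaip2 and 8 in Gbp2, where 1 is the first transcribed base and -1 the base before it. In Ptx3 the capitals span 2 overlapping matches around the start itself. Steap4 held 2 matches at the far end of the window, from positions -250 and -226. The windows of Lcn2 and Ccl12 held none of these letters. The C/EBP motif TTNNGCAAT was in the window of Gbp3 (2.51% of all genes), and the STAT motif TTCNNNGAA was in those of Steap4, Gbp7 and Ahcyl2 (9.55% of all genes). The C/EBP, STAT and NF-κB motifs were in 0 of the 2 windows of genes that fell. A match is a description of the letters and was not tested as a binding site.

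In the gene lists, which were chosen with earlier results of these data known, the reactive astrocyte genes had the highest median. This rank is a description, and Lcn2, Steap4 and Ptx3 are counted again in lists below. Of 36 genes listed, 16 were on the array and 11 had a value on all 6 arrays. With quantile normalization 6 of the 11 rose and 0 fell, with a median log2 change of 0.87, against 131 of 4312 genes higher, 35 lower and a median of -0.05 over all genes. With the trend removed 4 rose (Ptx3, Lcn2, Gbp2 and Steap4) and 0 fell, with a median of 0.40, against 14 higher, 5 lower and a median of -0.01. The 6 included Osmr, the oncostatin M receptor (1.29, and 0.75 with the trend removed, adjusted p = 0.0581), and Iigp1, an interferon-inducible GTPase (0.87 and 0.34). Sphk1, Tm4sf1, Emp1, Amigo2 and Srgn did not pass, with values from -0.04 for Amigo2 to 0.40 for Srgn. Without replicate 1 the count with the trend removed was again 4, and without the pairing it was 1.

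Of 15 measured genes of the interferon response and antigen presentation, 8 rose with quantile normalization (median 0.79) and 4 with the trend removed (median 0.36), with 0 lower in either fit. Over all 4312 genes 131 rose with quantile normalization and 14 with the trend removed, and the counts of the lists that follow stand against the same background. The 4 were the guanylate-binding proteins. Oas2, an RNA-sensing synthetase (0.79, and 0.80 with the trend removed, adjusted p = 0.063), and Usp18, a protease that removes ISG15 (0.87 and 0.71, adjusted p = 0.077), kept most of their size but did not pass with the trend removed. Mx2, an antiviral GTPase, gave 0.85 and 0.36. Irf8, Irf9, Tgtp1, Rsad2 and Psme1 lay between -0.16 and 0.10 with the trend removed and did not pass. Without replicate 1 the count of 4 was 2, and without the pairing it was 0.

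Upstream, the receptor and its adaptors did not pass. Il1r1, the receptor itself, read 13.08, 13.35 and 13.02 with vehicle and 13.57, 14.29 and 13.29 with IL-1β. The groups overlapped, although each pair was higher with IL-1β, and the change was 0.57 ± 0.21 and, with the trend removed, 0.28 ± 0.13 (adjusted p = 0.127 and 0.572). Of 9 measured adaptors and kinases 0 passed by limma in either fit, and 2 had an unadjusted p under 0.05 with quantile normalization and 0 with the trend removed. Over all 4312 genes 806 and 405 had an unadjusted p under 0.05 in these fits. The same background holds for such counts in the lists and markers below. The values of the adaptors and kinases with the trend removed ran from -0.30 for Ikbkg to 0.17 for Tbk1, with Myd88, the adaptor of IL-1R1, at 0.05. Of 5 NF-κB subunits and inhibitors Nfkbia passed with the trend removed. Cyld, a deubiquitinase that restrains NF-κB, passed with quantile normalization alone (0.89, and 0.28 with the trend removed). Of 8 genes that NF-κB induces, Nfkbia and Tnfaip2 passed with the trend removed, and Birc3, an inhibitor of apoptosis, only before (0.96 and 0.34).

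Among 12 measured chemokines Ccl12 alone passed with the trend removed, and Cxcl12 passed before (0.89 and 0.49). Ccl4 gave 0.62 and 0.00, Ccl3 0.01 and 0.10, Cxcl9 0.39 and 0.18, and none of these 3 passed. Of 12 acute phase and complement genes Ptx3, Lcn2 and Steap4 rose in both fits. The complement genes C1ra, C2, C1qc and C3ar1 lay between -0.29 and 0.18 with the trend removed and did not pass. Of the 5 measured cytokines (Tnfsf10, Il4, Il17b, Il12b and Il16) 0 passed by limma in either fit, with 0 and 1 at an unadjusted p under 0.05.

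In the list of iron, copper and zinc handling Lcn2 and Steap4 rose in both fits. Mt1, a metallothionein, fell with quantile normalization (-0.90) and did not pass with the trend removed (-0.66). The iron exporter Slc40a1 gave 0.11 and the transferrin receptor Tfrc -0.19 with the trend removed. Among 14 bHLH, Id and Notch regulators 0 rose and Id4 and Hey1 fell with quantile normalization. Hey1, a Notch target, gave -1.21, and -0.86 with the trend removed (adjusted p = 0.0581) on 1 probe, and -0.06 and -0.50 on another that passed in neither fit. In glutamate and glutamine handling Slc38a1 fell in both fits, and glutamine synthetase (Glul) in the first alone (-0.82 and -0.48).

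The subunits of oxidative phosphorylation lay to the other side of 0. With the trend removed 18 of 19 measured subunits had a negative value and 0 passed by limma (5 at an unadjusted p under 0.05), with a median of -0.25, against 2228 of 4312 genes with a negative value and a median of -0.01. They ran from -0.54 for Ndufb10 to 0.06 for Ndufa11. Uqcr10, a subunit of complex III, was the 1 gene of the list that fell with quantile normalization (-0.88). No test of the list as a whole was made.

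**Figure D3:**
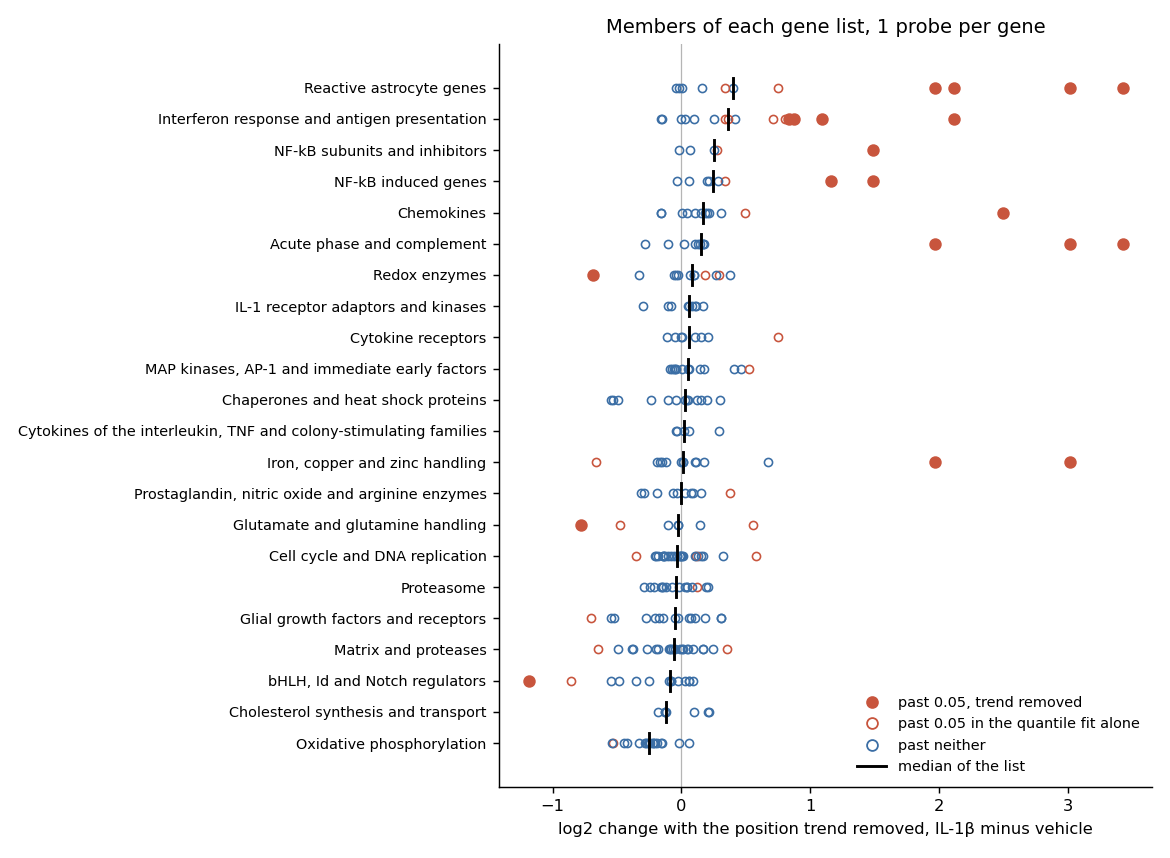
Log2 change with the position trend removed for each measured member of the 22 pathway lists with 5 or more measured genes, 1 probe per gene; black bars are list medians and filled orange points passed an adjusted p of 0.05. Open orange points passed with quantile normalization alone. The filled points above 1 belong to lists of reactive astrocyte, interferon, NF-κB, chemokine, acute phase and metal genes, and the lowest median is that of oxidative phosphorylation.

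Markers of the cell types that mixed glia can hold were set beside these changes. Of 4 measured astrocyte markers Id4 and Glul fell with quantile normalization and Id4 with the trend removed, while Sox9 gave -0.18 and -0.65 and Slc1a2 0.09 and 0.14 and did not pass. Their mean log2 intensity was 14.32 to 14.59 over the vehicle arrays and 13.70 to 13.95 over the IL-1β arrays, and part of this is the fall of Id4 itself. Of 9 microglia and macrophage markers 0 passed by limma in either fit, with 2 and 1 at an unadjusted p under 0.05, and their mean was 14.46 to 14.63 with vehicle and 14.17 to 14.65 with IL-1β. Of 7 endothelial and mural markers 1 rose before the trend was removed (Emcn, 0.82) and 0 after. With the trend removed all 7 had a positive value (median 0.16, against 2076 of 4312 genes with a positive value). Of the 7, 4 were higher in every pair, against 602 of 4312 genes. The mean of these markers was 13.03 to 13.38 with vehicle and 13.19 to 13.59 with IL-1β. Ependymal cells had 0 measured markers, and 2 or 3 were measured for oligodendrocytes, their precursors, neurons and meningeal fibroblasts, of which 0 passed by limma in either fit (1 and 0 at an unadjusted p under 0.05). Intensities hold an unknown background, so presence of a cell type could not be checked against 0. The part of cell composition in the changes was not tested.

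A larger set of genes passed with quantile normalization alone, and these followed the position of their probes. The 12 genes that led the increases (13 probes) were Osmr, Mir17hg, Fmr1, Zcchc10, Lrrfip1, Rrad, Clec16a, Zfp592, BC147527, Slc1a5, Smad3 and Trdn. All 13 probes lay after the step, with log2 changes of 0.78 to 1.32, and of 0.35 to 0.78 with the trend removed (adjusted p from 0.0581 to 0.464). The 12 that led the decreases were Hey1, Maged1, Cuedc2, Crb2, Mboat7, Fhl1, Cul7, Gtf2h1, Txnip, Cst3, Cops4 and Mbtd1. Of these 0 lay after the step, with changes of -1.58 to -0.88, and of -1.10 to -0.40 with the trend removed (adjusted p from 0.0581 to 0.457). In some, replicate 2 moved far more than the others. Gtf2h1 changed by -0.68, -3.66 and -0.41 in replicates 1, 2 and 3, Cuedc2 by -0.69, -3.155 and -0.74, and Mbtd1 by -0.76, -2.32 and -0.29. With the trend removed, replicate 2 still gave -3.04 in Gtf2h1, -2.54 in Cuedc2 and -1.585 in Mbtd1, and replicate 3 of Gtf2h1 and Mbtd1 was at 0.04 and 0.10. These probes shared an inferred place, column 7 of plate row 1 or 2, with those of Maged1 (probe 1951) and Crb2. The smoothing thus left large local values there in replicate 2, and a local defect of the arrays was not tested. Smad3, which carries TGF-β signals, gave 1.02 on 1 probe after the step and 0.19 on another before it. Txnip, which binds thioredoxin, gave -0.91 and -0.15 on its 2 probes. Maged1 gave -1.20 on probe 1951 and -0.285 on probe 1395 with quantile normalization. Mbtd1 gave -1.12 on probe 7, and -0.10, -0.13 and 0.07 on probes 199, 5429 and 7332. Lrrfip1 gave 1.28 and 0.78 on the probes that passed and 0.02 on probe 552.

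A further 1979 probes had values in 2 of the 3 pairs and were outside the fits above. With these gaps kept, 38 of 8194 probes passed with the trend removed (0.464%), and 15 of the probes with 2 pairs passed in both fits, 10 higher and 5 lower. All 15 are named here after their values were seen. Of these, 2 are reactive astrocyte genes. Cd109 and Cd14 of the same list also had 2 pairs and did not pass, at 0.03 and 0.19 with the trend removed. Cd44, the receptor for hyaluronan, rose by 1.28 and 1.98 in replicates 2 and 3, and its change with the trend removed was 1.47 ± 0.18 (adjusted p = 0.00103). S1pr3, a receptor for sphingosine 1-phosphate, rose by 1.55 and 1.34 in replicates 1 and 2, and its change was 1.49 ± 0.19 (adjusted p = 0.00122).

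The other genes of this group that rose were Comp, a matrix protein of cartilage (1.47 ± 0.18 with the trend removed), Noct, a circadian phosphatase (1.59 ± 0.19), Atf1, a factor of the CREB family (1.44 ± 0.21), Tbcc, a tubulin folding cofactor (1.46 ± 0.22), Nupl1, a nucleoporin (1.26 ± 0.21), Gja4, a connexin (1.24 ± 0.23), and Angptl4, an inhibitor of lipoprotein lipase (1.11 ± 0.20). Timp2, an inhibitor of metalloproteinases, fell by 1.26 ± 0.18, but its other probe, with all 3 pairs, gave -0.37 and did not pass (adjusted p = 0.364). Jarid2, a partner of the Polycomb complex, fell by 1.07 ± 0.19, Pygb, brain glycogen phosphorylase, by 1.07 ± 0.20, and Klhl23 by 0.98 ± 0.18. Probe 3972 was higher (1.34 ± 0.18) and probe 4636 lower (-1.03 ± 0.20). Each value rests on 2 pairs and borrows its spread from the other probes.

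Whether the response differed in glia without IL-1R1 was tested on the 5713 probes with a value on 10 arrays, 6 wild-type and 4 IL-1R1-deficient. Replicate 3 of the IL-1R1-deficient glia did not enter, since both of its arrays repeat others. Its IL-1β array held the values of the array labelled vehicle replicate 1 of the same genotype, at a constant ratio of 1.67 (6531 of 6584 shared probes). Which of these labels holds is not known, so the IL-1R1-deficient pair 1 used here may not compare IL-1β with vehicle. The response of the genotypes differed at 9 probes (0.158%): Ptx3, Lcn2, Steap4, Tnfaip2, both probes of Ccl12, both of Nfkbia, and probe 4650. Ptx3 changed by 0.09 and -0.10 in the 2 IL-1R1-deficient pairs, and Lcn2 by 0.15 and 0.15. Steap4 changed by 0.34 and -0.23 there. The difference in log2 response, wild-type minus IL-1R1-deficient, was 3.17 ± 0.54 for Ptx3 (adjusted p = 0.0332), 2.75 ± 0.33 for Lcn2 (adjusted p = 0.00593) and 2.25 ± 0.32 for Steap4 (adjusted p = 0.00798). The same 9 probes passed when the trend was removed. Without IL-1R1-deficient replicate 1, which leaves 1 pair whose spread is assumed to be that of the wild-type pairs, 7 probes passed, 6 of them among the 9. Ptx3 (3.20, adjusted p = 0.024), Lcn2 (2.66, adjusted p = 0.0187), Steap4, Tnfaip2 and both probes of Ccl12 passed there, and the Nfkbia probes and probe 4650 did not (adjusted p = 0.0936, 0.316 and 0.391). Without IL-1R1-deficient replicate 2, with pair 1 alone, 2 passed, Lcn2 and Ccl12 probe 5112.

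Gbp2 was outside this table. Gbp3, Gbp7 and Gbp9 had differences of 1.41 ± 0.35, 1.28 ± 0.31 and 1.19 ± 0.33 that did not pass (adjusted p = 0.134, 0.125 and 0.175), so a difference between genotypes was not shown for them. Id4 and Slc38a1, at -1.60 ± 0.30 and -1.40 ± 0.28, both had an adjusted p of 0.0642. Lrig1 changed by 0.78 and 0.28 in the IL-1R1-deficient pairs, and its difference of 0.47 ± 0.29 did not pass (adjusted p = 0.472). Without wild-type replicate 1 the number of probes that differed was 3, those of Ptx3 and Lcn2 and probe 5112 of Ccl12. Steap4, Tnfaip2, both probes of Nfkbia, the other probe of Ccl12 and probe 4650 did not pass there. Without replicate 2 the number was 16 and without replicate 3 it was 10.

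**Figure D4:**
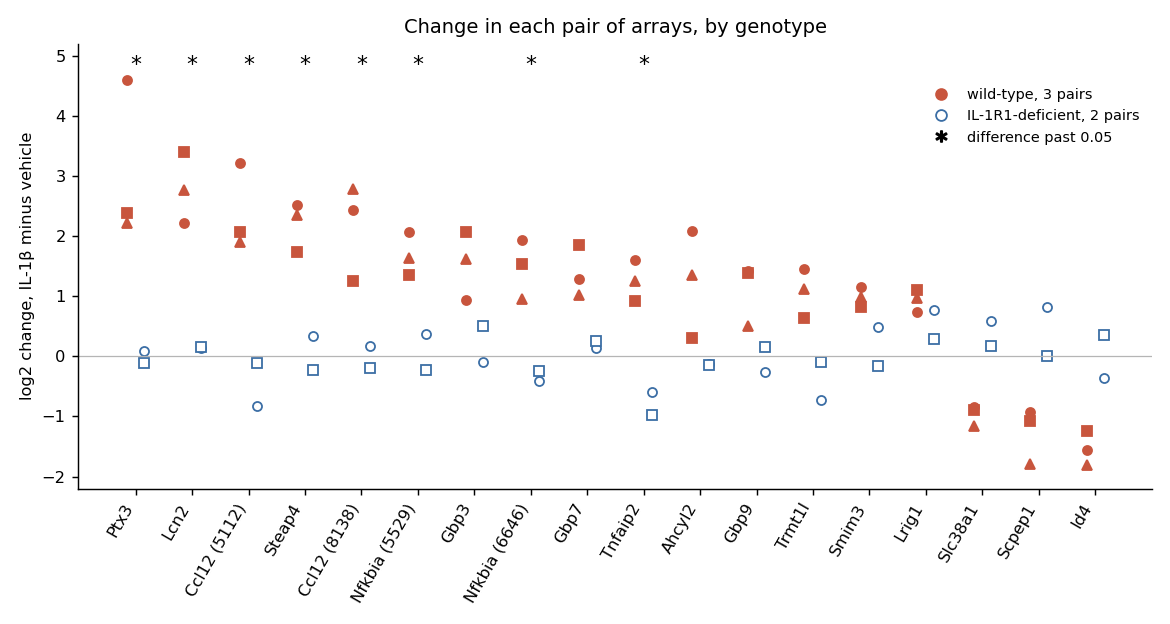
Log2 change, IL-1β minus vehicle, in each of the 3 wild-type pairs (filled orange) and 2 IL-1R1-deficient pairs (open blue) for 18 of the 19 probes (Gbp2 is outside this table); values are quantile normalized and the symbol gives the replicate. Asterisks mark the 8 named probes whose response differed between genotypes at an adjusted p of 0.05. The IL-1R1-deficient pairs of Ptx3, Lcn2, Steap4, Ccl12 and Nfkbia lie below all wild-type pairs.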

How the data were processed

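Per the labels, cDNA was made from DNase-treated total RNA with radio-labelled dCTP. The authors deposited 1 linear intensity per probe and array. Details of spot quantification, background correction and filtering were not given in the sources used here. Gene symbols came from the platform annotation (7153 of 8734 probes with 1 symbol, 387 with several, 1194 with none; 7080 matched the GRCm38.p6 table), and probes with several symbols were left unnamed.

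Log2 intensities of the 6 wild-type arrays were quantile normalized and fitted with limma 3.58.1 (R 4.3.3; lmFit, eBayes) with the replicate as a block, two-sided, with Benjamini-Hochberg adjustment over 6215 probes. The pairing comes from the design text. Same-numbered arrays deviated together (r = 0.479, 0.596 and 0.280), while arrays of unlike number gave r from -0.531 to 0.198. These values still held the position trend, whose part in them was not tested. In the second fit each array's deviation was smoothed over inferred plate row and column (loess, span 0.2, 2 parts) and subtracted first. Fits were also run on simulated data. The trend added there was the one this smoother found in these arrays, so the run cannot check the smoother or the layout. The genotype comparison used 10 arrays.

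The arrays, gene lists and rules were chosen with earlier results of these data known. Named genes are those past 0.05 in both fits and alike in 3 of 3 pairs, up to 12 per direction past 0.05 in the first fit alone, list members that passed with up to 4 others of the largest change, Il1r1, and further probes of these genes; other list members, named to show a list's range, were chosen after their values were seen. In the lists a gene is read on its brightest probe. Alternatives covered normalization, gaps, dim probes, the block, the variance model, the smoother and each replicate left out.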

Additional observations from a re-analysis of the deposited data

Results flagged for a closer look

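The response of wild-type and IL-1R1-deficient glia differed, by the test of the difference itself (limma, 3 wild-type and 2 IL-1R1-deficient pairs), at 9 probes. In log2 units, wild-type minus IL-1R1-deficient, the difference was 3.167 for Ptx3, 2.747 for Lcn2, 2.249 for Steap4 and 2.149 for Tnfaip2. It was 2.977 and 2.274 on the Ccl12 probes 5112 and 8138, 1.719 and 1.902 on the Nfkbia probes 5529 and 6646, and 1.869 on probe 4650, which has no gene symbol here. Tnfaip2 changed by -0.60 and -0.97 in the IL-1R1-deficient pairs, opposite to the wild-type pairs, and its change within IL-1R1-deficient glia did not pass (adjusted p = 0.601).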

How the results depend on the processing

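The 222 calls of the quantile fit became 385 with cyclic loess, 457 with gaps kept, 392 with a variance trend on intensity and 353 with both genotypes in the fit, 141 without dim probes, 1 without the pairing (591 at an unadjusted p under 0.05) and 0 without moderation (636), and 59 to 92 with a replicate left out. The 25 calls with the trend removed became 15 with median centring, 15 with no normalization, 38 with gaps kept, 44 with the variance trend, 42 when smoothed as 1 part, 5 without the pairing (Ptx3, both Ccl12 probes, Tnfaip2 and Nfkbia probe 6646), 0 without moderation (401), and 32 to 37 with a replicate left out. The 9 genotype differences became 264 with median centring, 0 without the pairing (362) and 3 to 16 with a wild-type replicate left out, and 2 to 7 with an IL-1R1-deficient replicate left out, chosen after seeing the data. The 21 calls made in both fits became 0 without the pairing and 20 to 31 with a replicate left out, an alternative chosen after seeing the data, as were those for the lists. The reactive astrocyte count of 4 became 1 without the pairing and 4 to 5 with a replicate left out, and the interferon count of 4 became 0 and 2 to 5. No value that passed reversed its sign. The 1 single-gene value that did, the genotype difference of Lrrfip1 on probe 8712, passed in no setting and went from 0.158 to -0.111 with the trend removed, -0.002 without wild-type replicate 2 and -0.103 without IL-1R1-deficient replicate 1. Of the single-gene values 1307 kept their side of the threshold, 63 gained it and 210 lost it. The number of arrays and the unknown background limit the precision.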
